A study of Bos taurus with 8 samples.

Results

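IL22, IL17A and IL17F are the signature cytokines of type 17 lymphocytes, and their RNA was followed in bovine peripheral blood mononuclear cells (PBMCs) isolated from whole blood that had been exposed to lipopolysaccharide (LPS), a cell wall component of Gram-negative bacteria. The members were the rows of the single-cell RNA tables named IL22 (ENSBTAG00000015407), IL17A (ENSBTAG00000002150) and IL17F (ENSBTAG00000016835), 3 of the 21861 genes listed. They were selected on the measured 2 h RNA ratio, where IL22 was among the largest increases, so their levels over time are given as a description. Blood of 4 lactating Holstein females aged 2 years was pooled, and parts of the pool were left untreated (no LPS) or received LPS at 2 µg/ml, with sampling after 2, 4 and 8 h. Each treatment gave 1 library, so the treatments could not be compared against replicate spread, and the spread between animals cannot be seen. The incubation time of the no LPS cells is not given in the sources used here. After filtering, 28484 cells remained, and 285 of them held at least 1 unique molecular identifier (UMI, a tag that marks 1 captured RNA molecule) of a member: 42 of 7821 without LPS, 81 of 9865 at 2 h, 52 of 7387 at 4 h and 110 of 3411 at 8 h.

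IL-17A and IL-17F are closely related proteins that act as dimers on epithelial and stromal cells through the receptor chains IL-17RA and IL-17RC, where they raise neutrophil-attracting chemokines and antimicrobial peptides. IL-22 belongs to the IL-10 family, acts on epithelial cells through IL-22RA1 and IL-10RB, and is held in check by the soluble binding protein IL-22RA2. Their usual sources are CD4 T helper 17 cells, γδ T cells and group 3 innate lymphoid cells, which respond to IL-1 and IL-23. In ruminants a large share of the circulating γδ T cells carries WC1, a family of scavenger receptors. In the RefSeq annotation of ARS-UCD2.0, IL17A lies beside IL17F, and IL22 lies beside its relative IL26, with IFNG next in line.

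The cells kept of the no LPS, 2 h, 4 h and 8 h libraries gave total UMI counts of 38503367, 47875879, 40160248 and 16657841, and the median per cell was 3997 to 4757 UMIs. Cells of 6 clusters were called T-like, and they made up 35.3%, 40.6%, 41.9% and 31.4% of the cells in the order no LPS, 2 h, 4 h and 8 h. The share of monocyte-like cells was 12.4%, 3.88%, 1.95% and 2.02% by library, and cells of unnamed clusters made up 22.9% to 24.4% of the first 3 libraries and 45.5% at 8 h. Any 2 libraries shared few barcodes, 93 of 30756 in all. Bracketed values are exact 95% Poisson intervals for levels and exact (Clopper-Pearson) binomial intervals for shares. They cover counting error only, and because a few cells held most UMIs of each member, they are narrower than the error of a second library would be.

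Among cells with 200 to 3000 genes, IL22 was highest at 2 h, and without the upper limit it was highest at 8 h, as given below with those cells. Its level, as UMIs of the gene scaled to all UMIs of the library (CPM), was 1.01 CPM (0.72 to 1.38) in untreated cells, 17.3 CPM (16.2 to 18.6) at 2 h, 1.47 CPM (1.12 to 1.90) at 4 h and 7.98 CPM (6.69 to 9.46) at 8 h, from 39, 830, 59 and 133 UMIs. The interval at 4 h overlapped that without LPS, and those at 2 h and 8 h lay above both. The 2 h level was 17.1-fold that without LPS (12.4 to 24.2), and the 8 h level 7.88-fold (5.48 to 11.6). Ratios on the log2 scale were taken after adding 1 CPM to both levels, and on that scale IL22 stood at 3.19 at 2 h, 0.29 at 4 h and 2.16 at 8 h.

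IL17A had the fewest UMIs of the members summed over the libraries, though not at 4 h. Its level was 0.338 CPM (0.18 to 0.577) in untreated cells, 2.76 CPM (2.31 to 3.27) at 2 h, 4.48 CPM (3.85 to 5.19) at 4 h and 0.78 CPM (0.416 to 1.33) at 8 h, from 13, 132, 180 and 13 UMIs. The 2 h and 4 h intervals lay above that without LPS, and the 8 h interval overlapped it. The log2 ratios to no LPS were 1.49, 2.04 and 0.41. IL17F had 3.71 CPM (3.13 to 4.37) in untreated cells, 17.9 CPM (16.8 to 19.2) at 2 h, 14.8 CPM (13.6 to 16) at 4 h and 5.46 CPM (4.40 to 6.71) at 8 h, from 143, 859, 593 and 91 UMIs. Its intervals at all 3 LPS times lay above that without LPS, with log2 ratios of 2.01, 1.74 and 0.46. The order of the levels was thus 2 h, 8 h, 4 h, no LPS for IL22, 4 h, 2 h, 8 h, no LPS for IL17A, and 2 h, 4 h, 8 h, no LPS for IL17F, where neighbours with overlapping intervals were 4 h and no LPS for IL22 and 8 h and no LPS for IL17A.

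All 3 members were at least 2-fold higher at 2 h on this scale, where 0.938% of 12150 genes with at least 20 UMIs were. At 4 h IL17A and IL17F were, against 1.28% of 12060 genes, and at 8 h IL22 alone, against 0.492% of 11778 genes. None was 2-fold lower, which 2.46%, 4.26% and 2.92% of genes were at 2 h, 4 h and 8 h. The choice of the genes used these contrasts, so nothing is read from the counts. Among 9255 genes with at least 200 UMIs, IL22 had the second largest log2 ratio at 2 h (rank 2) and IL17F rank 17. ISG15, an interferon-induced ubiquitin-like protein, closed the first 5 with 2.88, and CSF3, the granulocyte growth factor, came next with 2.63. IL17F had rank 40 of 9125 at 4 h and 839 of 8652 at 8 h, while IL17A at every time and IL22 at 4 h and 8 h had under 200 UMIs and were not ranked.

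The levels rested on very few cells. Without LPS 9 of 7821 cells held IL22, the highest with 23 UMIs, and 5 held a single UMI. At 2 h 26 of 9865 cells held it, and the first 5 had 373, 149, 76, 52 and 46 UMIs, so that 10 cells with at least 5 UMIs accounted for 97.0% of the total. At 4 h there were 6 positive cells of 7387, led by cells with 38 and 12 UMIs. Untreated, 2 h and 4 h positive cells held a mean of 4.33, 31.9 and 9.83 IL22 UMIs. The share of positive cells was 0.115% (0.0526 to 0.218) in untreated cells, 0.264% (0.172 to 0.386) at 2 h and 0.0812% (0.0298 to 0.177) at 4 h, while the median per positive cell was 1, 2.5 and 3 UMIs, so the larger mean at 2 h came from the few strongest cells. At 8 h the picture was different, with 45 of 3411 cells positive (1.32%, 0.964 to 1.76), of which 42 held a single UMI and the other 3 held 54, 29 and 8.

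**Figure D1:**
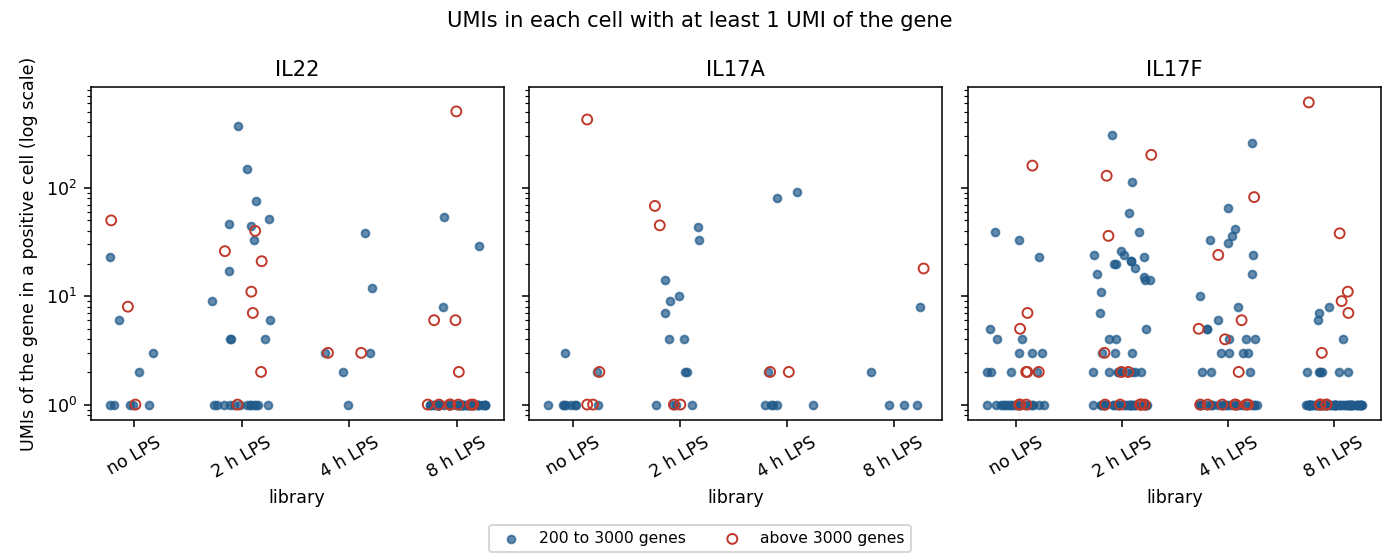
Each point is 1 cell with at least 1 UMI of the gene named above the panel, and the y axis gives its UMIs of that gene on a log scale, by library. Filled points are cells with 200 to 3000 genes and open points cells above 3000 genes; the 2 h library has IL22 cells of 373 and 149 UMIs, and the 8 h library has mostly cells with 1 UMI plus open points of 506 (IL22) and 613 (IL17F).

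IL17F showed the same concentration. It was held by 31, 63, 45 and 64 cells in the order no LPS, 2 h, 4 h and 8 h, or 0.396% (0.269 to 0.562), 0.639% (0.491 to 0.816), 0.609% (0.445 to 0.814) and 1.88% (1.45 to 2.39). The highest cell held 39, 305, 260 and 8 UMIs. Cells with at least 5 UMIs accounted for 69.9%, 92.5%, 91.2% and 23.1% of its UMIs, from 4, 20, 13 and 3 such cells, and the 8 h library had no cell above 8 IL17F UMIs among the cells kept. IL17A was held by 10, 14, 8 and 5 cells, and its highest cell had 3, 43, 92 and 8 UMIs. At 4 h a pair of cells with 92 and 81 UMIs made up 96.1% of its total, and without the higher one the IL17A level there was 2.19 CPM. Without the top cell of each library IL22 stood at 0.416, 9.55, 0.523 and 4.75 CPM and IL17F at 2.70, 11.6, 8.29 and 4.99 CPM, and the order of the libraries was kept for both.

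The upper limit of 3000 genes per cell removed cells rich in these RNAs. Without it IL17A stood at 7.64 CPM in untreated cells against 3.88, 3.26 and 1.00 CPM with LPS in the order of time, which reverses its direction at every time. A single no LPS cell with 3192 genes carried 426 of the 443 IL17A UMIs of that library, together with 160 UMIs of IL17F and 50 of IL22. This cell held 2 UMIs of CD3E, 4 of IL23R, 6 of IL1R1 and 19 of the monocyte marker CD14. IL22 without the limit stood at 1.69, 14.7, 1.15 and 21.4 CPM, so 8 h passed 2 h, and its 4 h log2 ratio turned from 0.29 to -0.32. IL17F stood at 5.59, 19.4, 12.8 and 25.1 CPM. At 8 h, 1 cell with 6596 genes held 506 of the 660 IL22 UMIs, along with 145 UMIs of CD14 and 12 of the B cell marker MS4A1, and another with 3092 genes held 613 of the 776 IL17F UMIs. Such cells can hold more than 1 cell's RNA, and the part of doublets was not tested.

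**Figure D2:**
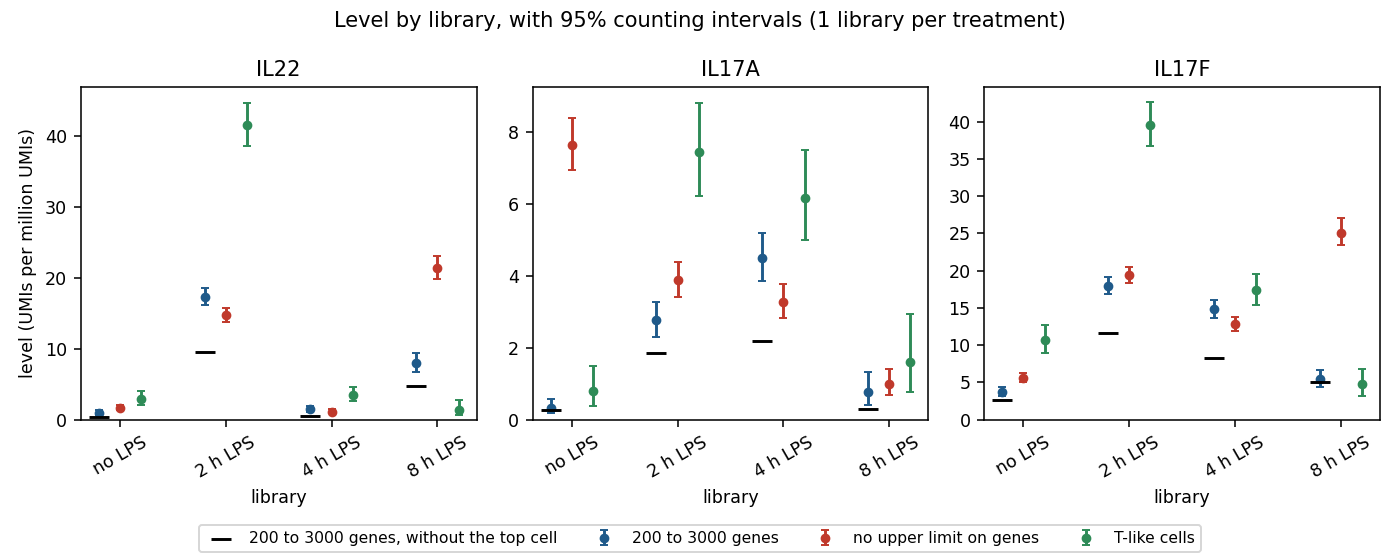
The level of each gene in CPM is plotted by library, with exact 95% Poisson intervals as bars, for cells with 200 to 3000 genes, for all cells with no upper limit on genes and for T-like cells; dashes give the level without the top cell, and each panel has its own y scale. IL22 in cells with 200 to 3000 genes is at 17.3 CPM at 2 h, and IL17A without the limit is highest in the no LPS library, at 7.64 CPM.

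In the no LPS, 2 h and 4 h libraries most positive cells lay in T-like clusters, and at 8 h most of those with IL22 or IL17F lay in unnamed ones. T-like cells held 6 of the 9 IL22-positive cells in untreated blood, and 17 of 26, 4 of 6 and 2 of 45 with LPS in the order of time. For IL17F they held 21 of 31, 50 of 63, 30 of 45 and 9 of 64, and for IL17A 7 of 10, 14 of 14, 6 of 8 and 2 of 5. The share of T-like cells with an IL17F UMI was 0.762% (0.472 to 1.16), 1.25% (0.928 to 1.64), 0.969% (0.655 to 1.38) and 0.841% (0.385 to 1.59), with overlapping intervals. B-like cells, which should lack these RNAs, served as the background, whose source (free RNA, doublets or misplaced cells) was not tested. Their IL17F share was 0.102%, 0.225%, 0.0461% and 0.321%, at median depths of 3856 to 6335 UMIs against 4198 to 5667.5 in T-like cells. None of 7421 B-like cells held 2 or more UMIs of any member (upper bound 0.0497%). In monocyte-like cells, a further background, the IL17F share was 0.413%, 0.261%, 1.39% and 2.9%, from 4, 1, 2 and 2 cells. It lay above the T-like share at 4 h and 8 h, with overlapping intervals. Of 1565 monocyte-like cells 3 held 2 or more IL17F UMIs, the highest 21. The IL22 share was 0.218% (0.0799 to 0.473), 0.425% (0.248 to 0.679), 0.129% (0.0352 to 0.33) and 0.187% (0.0226 to 0.674) in T-like cells and 0.051%, 0.0749%, 0 and 0.321% in B-like cells. Monocyte-like cells held IL22 in 0.206%, 0, 0 and 2.9%. The 8 h T-like share of IL22 lay below both the B-like and the monocyte-like share. Yet of the 2 T-like cells, 1 held 8 UMIs of IL22 and 8 of IL17F, and the other held 1. Among T-like cells the IL22 level was 2.91, 41.5, 3.51 and 1.43 CPM and that of IL17F 10.7, 39.5, 17.4 and 4.77 CPM, so within this class the 8 h log2 ratio to no LPS was -0.68 for IL22 (-1.28 to 0.04, which spans 0) and -1.02 for IL17F (-1.51 to -0.52).

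Of the T-like clusters, made without using the members, cluster 11 with 1188 cells held the most positive cells of each member. It held 61 cells with IL17F (5.13%, 3.95 to 6.55), 16 with IL22 (1.35%, 0.772 to 2.18) and 18 with IL17A (1.52%, 0.9 to 2.38). Its leading genes by fold included CXCR6, a homing receptor of tissue-seeking T cells, DPP4, CD96 and CD4, beside the members. By library its IL17F share was 3.79% (17 of 449 cells) in untreated cells, 6.20% (23 of 371) at 2 h, 6.54% (17 of 260) at 4 h and 3.70% (4 of 108) at 8 h, with overlapping intervals. The IL22 level in cluster 11 was 4.23, 259, 29.9 and 10.2 CPM. The share of cluster 11 cells with IL22 was 0.891%, 2.16%, 1.15% and 0.926%, each from 1 to 8 cells. The T-like cluster with the next most IL17F-positive cells was cluster 6, with 31 of 1081 cells positive for IL17F (2.87%, 1.96 to 4.05) and 7 for IL22. It was led by TNFRSF4, TNFRSF18, CTLA4, PDCD1 and ICOS, costimulatory and checkpoint receptors of activated T cells. Cluster 0, an unnamed cluster led by ENSBTAG00000000144, RHEX and BLK and with WC1 genes among its markers, held 12 of 2648 (0.453%).

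**Figure D3:**
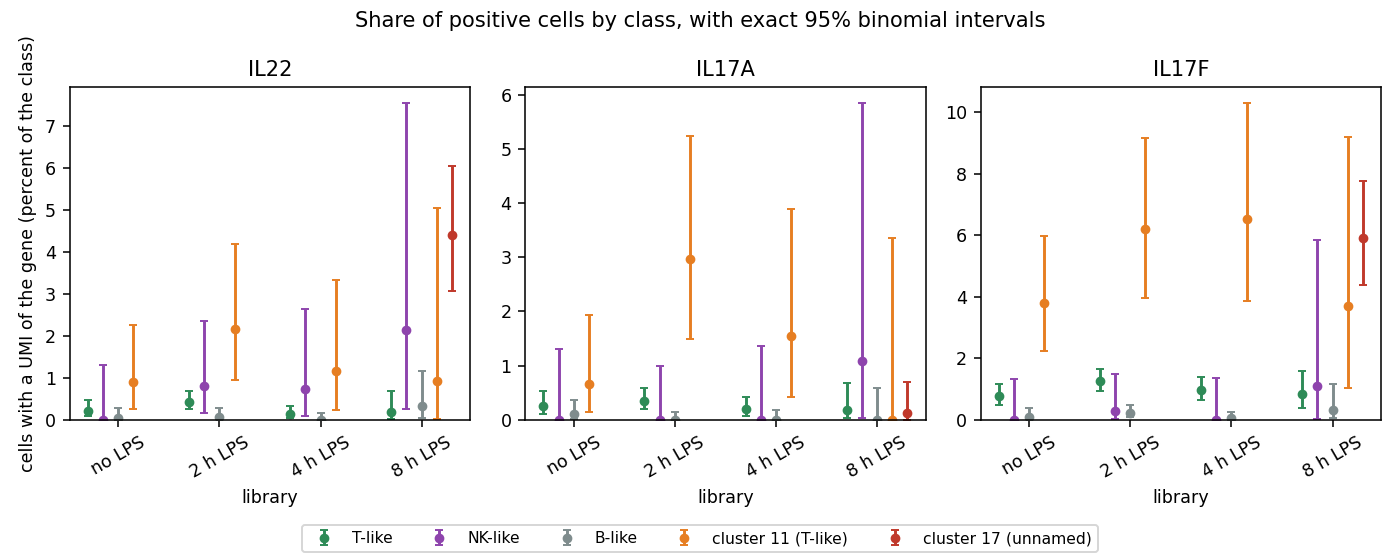
The share of cells with at least 1 UMI of each gene is plotted in percent by library for T-like, NK-like and B-like cells, for cluster 11 within the T-like cells and for the unnamed cluster 17, with exact 95% binomial intervals as bars; classes with under 60 cells in a library (cluster 17 outside 8 h) are left out, and each panel has its own y scale. Of the classes plotted, cluster 11 has the highest IL17F share before 8 h, at 3.79% to 6.54%, and cluster 17 has 4.4% for IL22 and 5.9% for IL17F at 8 h.

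NK-like cells held IL22 but almost no IL17A or IL17F. Their IL22 UMIs were 0, 86, 3 and 83 in 279, 369, 270 and 93 cells, held by 0, 3, 2 and 2 cells. Their IL22 level was 0 CPM (0 to 2.6) without LPS, 45.8 CPM (36.6 to 56.5) at 2 h and 132 CPM (105 to 164) at 8 h. These LPS levels were 21.7 and 62.5 times a floor of 3 counts in the no LPS library (2.11 CPM). At 4 h IL22 was under that floor. Without the top cell the level was 5.34 CPM at 2 h and 46.8 CPM at 8 h. By cells the shares were 0% (0 to 1.31), 0.813% (0.168 to 2.36), 0.741% (0.0898 to 2.65) and 2.15% (0.262 to 7.55), with overlapping intervals. The multiples of the floor and the UMI-based intervals in this paragraph treat UMIs as independent, though a few cells held them. Over the 4 libraries 2 of 1011 NK-like cells had a UMI of IL17F and 1 had a UMI of IL17A. The strongest NK-like cells held 76 IL22 UMIs at 2 h and 54 and 29 at 8 h, with no UMI of CD3D, CD3E or CD3G or of IL23R. The 8 h cells held 3 and 2 UMIs of KLRD1, an NK cell receptor, and the first also 2 of NCR1. They held 11 and 3 UMIs of granule genes of cytotoxic cells. The 2 h cell held 0 UMIs of KLRD1 and NCR1, 1 of CD8A, 4 of CD8B, 3 of KLRB1, 47 of IFNG and 11 of granule genes. Another 2 h NK-like cell, with 6 IL22 UMIs, also held 0 of KLRD1 and NCR1. It held 1 UMI each of KIT and KLRB1, 5 of IFNG and 3 of granule genes. IL22 made up 98.9% (93.8 to 100) of the summed IL22 and IL17F UMIs of NK-like cells at 2 h and 98.8% (93.5 to 100) at 8 h, against 51.2% (48.6 to 53.8) and 23.1% (11.1 to 39.3) in T-like cells.

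Most of the IL22- and IL17F-positive cells at 8 h were of another kind. Cluster 17, with 796 cells at 8 h and 47, 59 and 6 in the no LPS, 2 h and 4 h libraries, held 35 of the 45 IL22-positive cells (4.4% of its cells) and 47 of the 64 IL17F-positive ones (5.9%). All 35 held a single IL22 UMI, 42 of the 47 a single IL17F UMI, and none more than 2. Its cells were shallow, with a median of 1330.5 UMIs at 8 h against 5434 in the other cells kept, no T cell marker passed the naming limits in it, and it was left unnamed. At 8 h 0.321% of B-like cells were positive for IL22 and as many for IL17F, and 2.9% of the 69 monocyte-like cells for each. Cluster 17 was led by ENSBTAG00000001219, MZB1, JCHAIN and GNG11, and by the cell cycle genes PTTG1 and UBE2C. Its IL22 level was 26.1 CPM and its IL17F level 38.8 CPM. IL22 made up 40.2% (29.9 to 51.3) of the IL22 and IL17F UMIs in cluster 17, and 43.5% (40.7 to 46.3) in the 8 h cells above 3000 genes. Whether free RNA gave these single UMIs was not tested. Without cluster 17 the 8 h library had 98 IL22 UMIs in 10 cells (6.40 CPM) and 39 IL17F UMIs in 17 cells (2.55 CPM), which put IL17F below no LPS, with a log2 ratio of -0.41 in place of 0.46, while IL22 stayed at 1.87.

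Cells were strongly positive, with at least 5 UMIs of a member, in 49 cases among the cells kept. Of these 28 lay in cluster 11, 11 in cluster 6, 4 in the NK-like cluster 13 and 6 elsewhere. CD3 RNA (CD3D, CD3E or CD3G, the T cell receptor signalling chains) was found in 45 of the 49, and IL23R, a chain of the IL-23 receptor, in 29. CD4 was found in 9, a CD8 gene in 4, a WC1 gene in 13, and none of these in 25. Above the gene limit there were 21 more, all with CD3 RNA and 15 with IL23R. Of these 11 held CD4, 3 a CD8 gene, 7 a WC1 gene and 4 none of them. They were deeper, with 13636 to 117346 UMIs against 1081 to 20884 in the 49 kept, which makes any marker easier to find. Member RNA reached a large part of single cells. At 2 h a cell with 8716 UMIs held 46 UMIs of IL22, 43 of IL17A and 305 of IL17F, 4.52% of its RNA, and a shallow cell of 1160 UMIs gave 5.26% of its UMIs to the members, 52 of them to IL22. A mitochondrial limit of 10% leaves this shallow cell out.

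The members were found together less evenly. IL17A came with IL17F in 22 of its 37 positive cells (59.5%), which is 10.8% of the 203 cells with IL17F. By library IL17F was found in 3 of 10 IL17A-positive cells of untreated blood, 13 of 14 at 2 h (92.9%), 5 of 8 at 4 h and 1 of 5 at 8 h. IL22 came with IL17F in 19 of its 86 cells (22.1%), or 9.36% of the IL17F-positive cells, and all 3 were found in 8 cells, 5 of them at 2 h. Some of the strongest IL22 cells lacked IL17 RNA. The 2 h cell with 373 IL22 UMIs held 39 of IL17F and 0 of IL17A, and the one with 149 held neither but 33 UMIs of IFNG, the type 1 cytokine.

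The subset of the positive cells was read from CD4, CD8A and CD8B, the WC1 genes and granule genes of cytotoxic cells. IL17F had the most positive T-like cells, 110 against 10817 without an IL17F UMI over the 4 libraries, at higher median depth (5895 to 7723 UMIs against 4188 to 5659 by library). CD4 was found in 40.9% (31.6 to 50.7) of the IL17F-positive and 37.0% of the negative cells, and the positive share ran from 30% (9 of 30) at 4 h to 57.1% (12 of 21) without LPS. CD8A or CD8B was found in 3 of 110 (2.73%, 0.566 to 7.76) against 18.4%, and in at most 6.67% in any library against at least 17.5%. CD8B itself was in 0 of 110 against 13.4%. WC1 genes were found in 14.5% (8.55 to 22.5) against 1.85%, with 12% to 20% positive in the first 3 libraries and 0 of 9 at 8 h. Granule genes were found in 21.8% (14.5 to 30.7) against 11.2%. No UMI of CD4, CD8 or WC1 genes was found in 43.6% against 44.7%. With every cell thinned to 1000 UMIs the shares were 13.6% against 12.3% for CD4, 0 against 6.08% for CD8 and 4.55% against 0.336% for WC1. At both depths the intervals of the positive and negative cells were apart for CD8 (lower) and WC1 (higher) and overlapped for CD4. Unnamed clusters, among them the WC1-marked cluster 0, were not part of the T-like cells compared here or in the next paragraphs. Some strongly IL17F-positive cells with CD3 RNA in unnamed clusters held CD8 and granule gene RNA. In cluster 14 a 2 h cell held 7 CD8B and 201 granule UMIs, and a 4 h cell 1 CD8A and 143 granule UMIs. A 2 h cell of cluster 20 held 1 UMI of CD8A, 1 of CD8B and 34 of granule genes. The 4 h cells of cluster 0 with 260 and 5 IL17F UMIs held no CD8 RNA. How cells of the unnamed clusters would change these shares is not given, except for CD4, CD8, WC1 and granule genes in IL22-positive cells. Those shares are given in the closing section for cells with CD3 RNA in any cluster.

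IL22-positive T-like cells numbered 29, of which 17 came from 2 h. CD4 was found in 9 of them (31.0% against 37.1% of IL22-negative cells), CD8A or CD8B in 1 (3.45% against 18.2%), CD8B in none, a WC1 gene in 5 (17.2% against 1.94%), granule genes in 8 (27.6% against 11.3%), and no CD4, CD8 or WC1 RNA in 15 (51.7% against 44.7%). IL17A-positive T-like cells, also 29, held CD4 in 27.6%, CD8 in 3.45%, WC1 in 17.2% and granule genes in 24.1%. After thinning, CD4 was left in 10.3% of the IL22-positive cells and CD8 and WC1 in none, so the subset of these few cells was not resolved at equal depth.

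**Figure D4:**
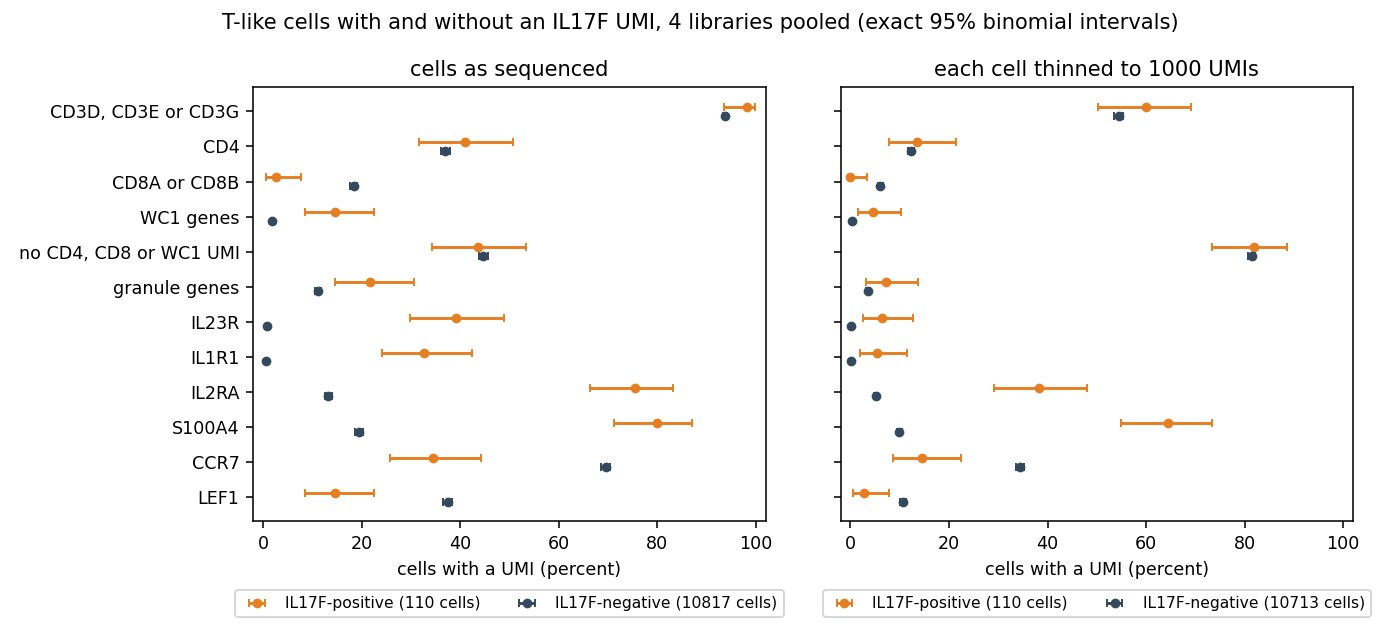
The share of T-like cells with a UMI of each marker is plotted in percent, with exact 95% binomial intervals as bars, for cells with and without an IL17F UMI over the 4 libraries together, as sequenced (left) and with each cell thinned to 1000 UMIs (right). IL23R, IL1R1, IL2RA and S100A4 lie higher and CD8, CCR7 and LEF1 lower in IL17F-positive cells, while the CD4 intervals overlap.

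The receptors for IL-23 and IL-1 marked the IL17F-positive cells in every library. IL23R was found in 39.1% (29.9 to 48.9) of them against 0.721% of the other T-like cells, with 33.3%, 42.0%, 43.3% and 22.2% in the order no LPS, 2 h, 4 h and 8 h against at most 0.784%. IL1R1, the signalling receptor for IL-1, was found in 32.7% (24.1 to 42.3) against 0.601%. IL23R was found in 44.8% of the IL22-positive T-like cells against 0.991% of the IL22-negative ones, and in 48.3% of the IL17A-positive ones. IL2RA, the high-affinity IL-2 receptor chain of activated T cells, was found in 75.5% against 13.2% with IL17F. S100A4, a calcium-binding protein high in memory cells, was found in 80.0% against 19.4%. CCR7, which directs naive cells to lymph nodes, was found in 34.5% against 69.5%, and LEF1, a factor of naive T cells, in 14.5% against 37.5%. FOXP3, the factor of regulatory T cells, was in 0 of 110. Over all cells kept it was found in only 14, 25, 17 and 7 cells by library, so this 0 says little.

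Levels of all genes were then compared between IL17F-positive and IL17F-negative T-like cells within each library, with 10 CPM added to both. Only IL17F had at least 20 positive T-like cells in several libraries (21 without LPS, 50 at 2 h and 30 at 4 h), so IL22 and IL17A could not be treated this way. Of 3825 genes found in at least 10% of the positive cells of every library, 107 were at least 2-fold higher in each of the 3 libraries (2.8%) and 11 at least 2-fold lower in each (0.288%). The largest median log2 ratio was that of IL17A, 5.45 (2.39, 5.45 and 5.46 in the no LPS, 2 h and 4 h libraries). IL1R1 had 3.23 (3.23, 3.46 and 3.01) and IL23R 3.09 (2.71, 3.09 and 3.17), so both differed little between libraries. FURIN, a proprotein convertase, had 3.01, TNFRSF18, the costimulatory receptor GITR, 3.35, and S100A4 3.41. RHEX had 3.88, the Src family kinase BLK 3.55, and the unnamed genes ENSBTAG00000055197 and ENSBTAG00000000144 had 4.13 and 3.33, and these 4 also led the WC1-marked cluster 0. That cluster lay outside the T-like cells, so its cells were not part of the ratios. YWHAQ (3.29), PARM1 (2.93), ITGB3, an integrin chain (2.91), and LGALS1, a galectin (2.88), were also among the 15 largest. Within cluster 11 alone the medians were 6.07 for IL17A, 2.86 for IL23R, 2.87 for IL1R1 and 1.27 for S100A4. IL22 itself, found in too few positive cells for the rule, had 4.62, 6.61 and 4.16.

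**Figure D5:**
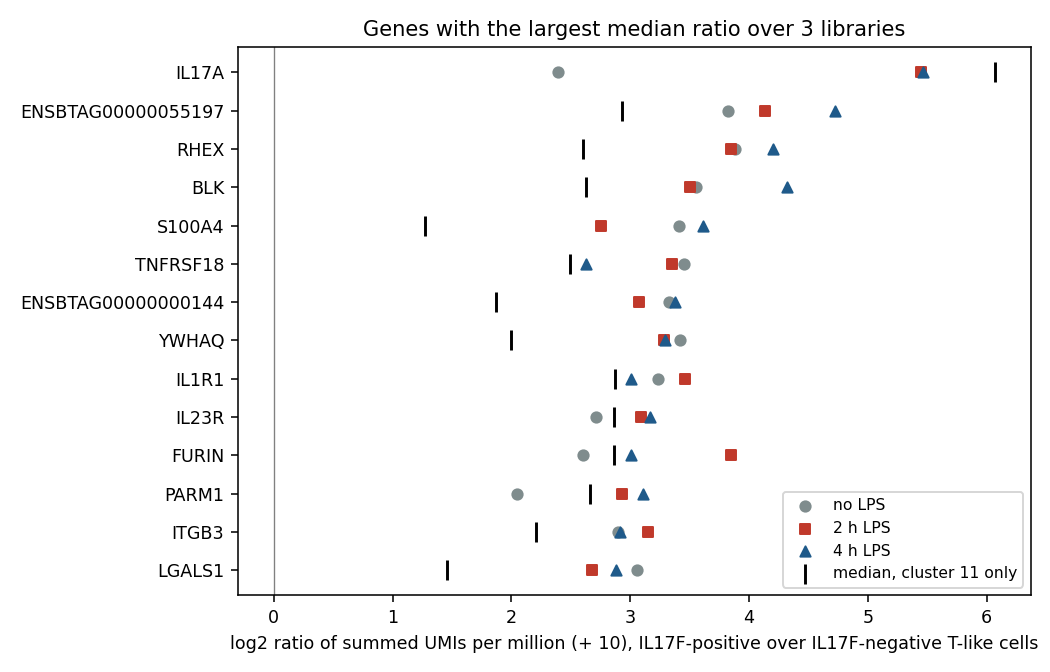
The log2 ratio of summed CPM (10 CPM added) in IL17F-positive over IL17F-negative T-like cells is plotted for genes among the 15 with the largest median, with 1 point for each of the 3 libraries with at least 20 positive cells and a black bar for the median within cluster 11. IL1R1 and IL23R lie between 2.71 and 3.46 in all 3 libraries, and IL17A lies lowest without LPS, at 2.39.

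Type 17 transcription factors were higher in IL17F-positive cells in 3 of the 6 tested (AHR, BATF and HIF1A) and lower in none, with a list median of 1.41 against 0.12 over all genes tested. Over all genes tested with IL17F, 2.8% were higher and 0.288% lower. By LPS time 3 of 9 were at least 2-fold higher at 2 h (BATF 1.68, IRF4 1.5 and NFKBIZ 1.44, log2 ratios of levels over all cells), 2 at 4 h (BATF 1.64 and IRF4 1.02) and none at 8 h, with list medians of 0.28, 0.40 and 0.24 against -0.03, 0.02 and 0.10 over all genes. The shares of all genes 2-fold higher at these times were 0.938%, 1.28% and 0.492%. Of the other lineage factors 1 could be tested for co-detection and was neither higher nor lower, and none of 6 (TBX21, EOMES, GATA3, FOXP3, BCL6 and ZBTB16) was 2-fold higher or lower at any time.

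Of the inducing cytokines, made largely by myeloid cells, 2 of 8 were at least 2-fold higher at 2 h, IL1A at 2.00 and IL6 at 1.02, and IL12B and IL23A, the chains of IL-12 and IL-23, stood at 1.00 and 0.99, just under the limit. Over all genes 0.938% were 2-fold higher at 2 h. IL23A had 2.80 CPM in untreated cells and 6.56, 2.66 and 2.64 CPM at the LPS times. At 4 h IL6 (-1.81) and IL1B (-1.23) were 2-fold lower, and at 8 h IL6 (-1.85), where 4.26% and 2.92% of all genes were. The monocyte-like share given above was lower at all 3 times, against the direction of these genes at 2 h and along with it for IL6 and IL1B at 4 h and IL6 at 8 h, and its part in them was not tested. In co-detection 1 of the list was tested and was neither higher nor lower.

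Receptors of the producing cell included 2 of 6 higher with IL17F, IL1R1 and IL23R, against 2.8% of all genes tested. By time none of 10 was 2-fold higher, and IL1R1 was lower at each time, at -1.47, -1.95 and -1.46, while IL23R stayed at -0.10, -0.09 and -0.12. Of all genes 2.46%, 4.26% and 2.92% were 2-fold lower at these times. IL1R1 was also among the markers found in the monocyte-like cluster. Fewer cells of a type and less RNA per cell cannot be told apart in such sums over all cells.

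IL22RA1, the IL-22 receptor chain of epithelial cells, had 0 UMIs in every library, and IL22RA2 had 4, 9, 10 and 5. IL10RB had 3084, 3883, 3108 and 1152 UMIs, with log2 ratios of 0.02, -0.05 and -0.21, and IL17RA stood at -0.49, -0.47 and -0.40. IL17RC had 42, 30, 24 and 20 UMIs. None of the 3 tested was 2-fold higher or lower at any time, and neither of the 2 tested with IL17F was. Among the relatives of the members, IL26, an IL-10 family cytokine encoded beside IL22, had 6, 25, 25 and 3 UMIs and was the 1 relative tested with IL17F. Its log2 ratios there were 1.68, 2.78 and 2.57, and at 2 h it was found in 18% of IL17F-positive T-like cells against 0.0253% of the others. IL17B had at most 1 UMI in a library.

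Other cytokines that T cells can make were 2-fold higher over all cells at 2 h in 3 of 15 cases, CCL20 at 3.46, IFNG at 2.35 and CSF2 at 1.52, with a list median of 0.73. Over all genes the share was 0.938%, and IFNG and CSF2 lay in 76 and 61 cells at 2 h. CCL20 stood at 591 CPM over all cells at 2 h but at 34.1 CPM in IL17F-negative T-like cells, so most of its UMIs lay in other cells. CCL20 is the ligand of CCR6, a homing receptor of type 17 cells. At 4 h IFNG (1.40) and IL9 (3.01) were higher, 2 of 13, and at 8 h IL9 (2.17), IL13 (1.36), CSF2 (1.03) and XCL1 (1.02), 4 of 13. The shares over all genes were 1.28% and 0.492%. These rises rested on few cells. IL9 had 1 UMI without LPS, and IFNG and IL9 had 162 and 292 UMIs in 69 and 22 cells at 4 h. At 8 h IL9 had 60 UMIs in 7 cells, IL13 56 in 9, CSF2 156 in 34 and XCL1 149 in 29. With IL17F 1 of 3 tested, TNF, was higher, against 2.8% of all genes tested. IFNG was found in 0.909% of IL17F-positive T-like cells and 0.527% of the others. Activation genes were higher in 3 of 14 at 2 h, the early marker CD69 at 2.94, the costimulatory receptor TNFRSF4 at 1.90 and IL2RA at 1.19, and with IL17F in 2 of 5, ICOS and IL2RA. The shares over all genes were again 0.938% and 2.8%. Of the homing and memory genes 3 of 6 were higher with IL17F (S100A4, CXCR6 and ITGB1) and 2 lower (CCR7 and TCF7), while by time S100A4 alone of 10 passed 2-fold, lower at -1.12, -1.79 and -1.79 over all cells. In IL17F-negative T-like cells S100A4 stood at 343, 296 and 226 CPM in the no LPS, 2 h and 4 h libraries. The monocyte-like share was lower at the same times, and its part in the S100A4 values was not tested. CCR6 was found in 9.09% of IL17F-positive T-like cells and 0.601% of the others.

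Across 72 sums of UMIs by library and cluster with at least 50 cells each, the genes whose log2 level was most like that of IL22 were IL17A (Pearson r = 0.586), IL17F (0.566), IFNG (0.488), the chemokine CCL1 (0.485) and LPAR6 (0.477), out of 10006 genes. For IL17A they were IL17F (0.722), IL22 (0.586), DNAJC12 (0.547), ENSBTAG00000050573 (0.541) and PPARG (0.530). For IL17F they included IL17A (0.722), NELL2 (0.606), FURIN (0.578) and IL22 (0.566). Sums of 1 library share its depth and treatment, and IL22, IL17A and IL17F had a UMI in 24, 17 and 44 of the sums, so these values are a description.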

How the data were processed

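Raw UMI counts per gene and barcode were deposited by the authors, from 1 single-cell RNA library per treatment, with ARS-UCD1.2 as the genome and Cell Ranger as the counter. Counts of scATAC-seq were also deposited, and accessibility of the members was not analysed here. No protein or gene sequence was used.

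The members, lists and markers were chosen with earlier results of these data known. The study's limits on cells were applied (200 to 3000 genes, mitochondrial UMIs under 20%); a minimum of 200 UMIs is met by every cell with 200 genes. These limits left more cells in every library than the study states, so its cell numbers were not matched. After scaling to 10000 UMIs per cell, 2000 variable genes without the 3 members, 30 principal components and 15 neighbours gave 25 Leiden clusters at resolution 1 (scanpy 1.11.5, leidenalg 0.10.2, Python 3.11.15). Clusters were named from at least 3 markers, each found in at least 10% of cells at 1.5 times its level elsewhere, unless genes of another class led. No doublet caller was run, and doublets remain. Rebuilt names can differ from the study's.

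Total UMI counts per library of the cells kept, the base of CPM, were 16657841 to 47875879. UMIs were summed per library and scaled to CPM, and log2 ratios used a pseudocount of 1 CPM. Treatments were not tested against each other, having 1 library each. Intervals are exact at 95%, the floor is 3 counts, and shares were also taken after thinning to 1000 UMIs, which left out 284 to 508 shallower cells per library. The named genes are the members, the fixed lists, the 15 genes with the largest co-detection ratio and the 5 most alike in level. Some genes of these lists are not reported here, and list counts leave them out. Alternatives were TMM (edgeR 4.0.16) and DESeq2 1.42.0 size factors, for scaling only, other limits on cells, a pseudocount of 0.1 and other minimum counts. Others were T-like cells alone, T cells taken by a CD3 UMI in any cluster, mean CPM per cell, and Leiden resolutions 0.5 and 2. The ratio of summed counts, its interval and the 2-fold call were tested on simulated independent counts, with changes set in well-counted genes only. RNA held by a few cells was not simulated. Clustering, naming, thinning, shares and co-detection were not tested this way.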

Additional observations from a re-analysis of the deposited data

Results flagged for a closer look

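IL22 at 8 h had point values on opposite sides of no LPS in 2 classes, one of them with an interval that includes no change. In T-like cells its log2 ratio was -0.68 (-1.28 to 0.04), from 9 UMIs in 2 cells, and in NK-like cells it was at least 62.5-fold higher, from 83 UMIs in 2 cells against 0 without LPS. By share of positive cells the NK-like intervals overlapped, 0 to 1.31% without LPS and 0.262 to 7.55% at 8 h. The difference between the classes was not tested.

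Cells above 3000 genes, which the comparisons left out, held IL22 and IL17F at 8 h above the no LPS library, but not IL17A, which stood at 1.27 CPM against 22.1 CPM. IL22 stood at 37.1 CPM in them against 3.03 CPM without LPS, with 506 of 527 UMIs in 1 cell. IL17F stood at 48.2 CPM against 9.29 CPM, with 613 of 685 UMIs in 1 cell.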

How the results depend on the processing

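No paired analysis was possible because each treatment had 1 library, and no replicate could be left out. Values are log2 ratios to no LPS in the order 2 h, 4 h and 8 h unless said otherwise, and the cause of each change was not tested. Of 90 alternatives for the levels, 56 kept direction and size, 23 moved and 11 reversed. With no upper limit on genes IL22 was 2.55, -0.32 and 3.06, IL17A -0.83, -1.02 and -2.11, and IL17F 1.63, 1.07 and 1.99. With every deposited barcode IL22 was 2.55, -0.32 and 3.06, IL17A -0.82, -1.02 and -2.11, and IL17F 1.63, 1.07 and 1.99. With a pseudocount of 0.1 CPM IL22 was 3.97 at 2 h and 2.86 at 8 h, and IL17A 2.71 at 2 h and 3.39 at 4 h. In T-like cells alone IL22 was -0.68 at 8 h, and IL17F 0.66 at 4 h and -1.02 at 8 h. With the mean of CPM per cell IL22 was 2.71 at 8 h, IL17A 1.37 at 4 h, and IL17F 1.60, 1.43 and 1.48. Scaling by TMM or DESeq2 size factors and a mitochondrial limit of 10% moved none of them. As alternatives chosen after seeing the data, leaving out the top cell of each library gave IL17A 1.34 at 4 h and IL17F 1.76 at 2 h and 1.33 at 4 h, and leaving out cluster 17 gave IL17F -0.41 at 8 h.

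The share of cells with IL22 counted at 2 or more UMIs was 0.0511% without LPS, 0.132% at 2 h and 0.088% at 8 h. Thinned to 1000 UMIs it was 0.041%, 0.17%, 0.0282% and 0.659% in the order no LPS, 2 h, 4 h and 8 h. Among T-like cells it was 0.425% at 2 h and 0.187% at 8 h. IL22-positive cells with a CD3 UMI, in any cluster, held CD4 in 20%, CD8 in 6%, WC1 genes in 10% and granule genes in 38%. In IL22-positive T-like cells, thinning left CD4 in 10.3% and CD8 and WC1 genes in 0. Leiden resolution 0.5 gave CD4 53.3%, WC1 genes 0 and granule genes 6.67%. T-like cells were called anew at that resolution, so the set of cells changed, and none of those with a WC1 UMI stayed in it. Genes 2-fold higher with IL17F in 3 libraries numbered 53 with a pseudocount of 50 CPM and, chosen after seeing the data, 58 in cluster 11 alone. The positive cells numbered 5 to 64 per gene and library, which limits the precision of every share among them.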
